A study of Arabidopsis thaliana with 47 samples.

Results

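The comparison described here sets Arabidopsis thaliana protoplasts kept for 14 days in culture beside protoplasts sampled at once after isolation. It rests on 6 of the 47 RNA-seq libraries of the series, chosen by their labels: Day 14 control replicates 1 to 3 and Day 0 replicates 1 to 3. Both groups came from the wild-type accession Columbia-0, from rosette leaves 1 to 5 of plants 23 days after sowing, and protoplasts are leaf cells freed of their walls by enzymes. Day 0 cells had no culture. Day 14 control cells were embedded in alginate gel and kept at 22 °C in the dark in Gamborg B5 medium with glucose, mannitol, the synthetic auxin 2,4-D at 1 mg/L and the cytokinin-like compound thidiazuron at 176 µg/L, with no inhibitor. Each Day 14 library holds all cells released from a set of gels, those that divided and those that did not, so a change can come from a part of the cells only. Fewer cells of a type and less RNA per cell cannot be told apart in such bulk libraries.

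A mesophyll cell of a mature leaf does not divide. It spends much of its transcription on photosynthesis. Enzymatic wall removal is a strong stress to it, and with auxin and cytokinin some cells return to the cell cycle, rebuild a wall and grow into callus. In plants, genes used in S phase are known targets of E2F factors, genes used in G2 and M phase carry MSA elements bound by MYB3R proteins, and auxin acts through Aux/IAA repressors and ARF factors, with PIN proteins carrying it out of the cell.

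The Day 0 libraries held 7210638, 6209374 and 6486233 mapped reads, and the Day 14 libraries 5509024, 14953584 and 14000692. Levels are given as CPM, counts per 1 M counts, after TMM scaling, which sets the bulk of the loci equal between libraries. A group of very abundant transcripts filled the Day 0 libraries, where 312 to 400 loci held 50% of the counts against 1296 to 1441 at Day 14. Scaled CPM therefore sum to 1.71 M to 2.02 M per library at Day 0 and to 0.725 M to 0.799 M at Day 14. Under scaling to total counts the median log2 fold change of all loci tested moves from 0.29 to 1.59, so that every level or difference here is relative to the TMM scaling. Day 0 replicate 3 and Day 14 replicates 1 and 3 also carried thin, spread-out reads. Of 2171 loci that had no read in replicates 4 to 11, these libraries detected 29.4%, 45.0% and 83.6%, and the other libraries 0.691% to 3.59%.

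Of 20205 loci tested with edgeR's quasi-likelihood test, 4141 rose and 2720 fell at Day 14, which is 20.5% and 13.5% of the loci tested. A locus was called when its log2 fold change was beyond 2 in either direction with p and Benjamini-Hochberg adjusted p under 0.01. Rises made up 60.4% of the calls, and 88.2% (7705 rises, 1033 falls) when libraries were scaled to total counts. The called rises started low, at a median of 1.07 CPM at Day 0 against 14.0 CPM at Day 14, whereas the called falls started at a median of 114 CPM and ended at 12.7 CPM. The log2 fold change passed 6 in size for 570 rises and 213 falls. CPM did not overlap between the 3 Day 0 and the 3 Day 14 libraries for all 4141 rises and for 2719 of the 2720 falls, beside 74.5% of all loci tested. Among the rises, 1334 had at most 3 counts in every Day 0 library, and Day 0 replicate 3, one of the libraries with spread-out reads, was the highest Day 0 library for 2229. Among the 143 rises with a log2 fold change over 8, Day 0 replicate 2 was the highest for 43, replicate 3 for 14 and replicate 1 for 2. Replicates differed by a median coefficient of variation of 35.1% at Day 0 and 17.7% at Day 14 over called loci.

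The largest rises among named genes of at least 50 CPM included genes of the cell wall and of suberin. PR-1-LIKE, a member of the pathogenesis-related protein 1 family, stood at 0, 0.268 and 0 CPM at Day 0 and at 134, 91.4 and 124 CPM at Day 14. Its summed counts gave a 1230-fold ratio, with a 95% exact counting interval of 220 to 48500. EXPB3, a beta-expansin that loosens walls, stood at 0, 0.536 and 0 CPM at Day 0 and at 254, 156 and 212 CPM at Day 14. Both genes were silent or at 1 to 2 reads in every Day 0 library and high in every Day 14 library.

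CEL3, an endoglucanase of the wall, went from 0, 3.48 and 1.52 CPM to 814, 585 and 657 CPM (log2 fold change 8.68 ± 0.72 SE). MLP28, a member of the major latex protein family, went from 0.255, 22.5 and 0.909 CPM to 2950, 2900 and 3770 CPM (8.66 ± 1.1). The Day 0 value of MLP28 came almost wholly from replicate 2, and its family holds near-identical copies between which reads may be split. Rises of similar size were measured for GASA5, a small gibberellin-regulated peptide (9.32 ± 0.93), TBL39 and TBL36, members of the trichome birefringence-like family that acetylates wall polymers (8.43 ± 0.47 and 8.41 ± 0.75), AGP31, an arabinogalactan protein (8.36 ± 0.62), and the jacalin-related lectin JAL33 (8.58 ± 1.18). FAR5, a fatty acyl reductase that makes primary alcohols for suberin, rose with a count ratio of 643 (115 to 25400). AIL6, an AP2 factor also named PLETHORA 3, rose with a ratio of 389 (108 to 3210). Of the 5 nuclear loci with the most counts at Day 14, MLP28 and ATMS1, a methionine synthase that went from 338, 460 and 328 CPM to 2170, 2840 and 2950 CPM (2.82 ± 0.29), rose. HOG1, an adenosylhomocysteinase of the same methyl cycle, stood at 616 to 785 CPM and then at 2240 to 2900 CPM, just under the fold threshold (1.96 ± 0.25). GSTF2, a glutathione transferase, stood at 3310 to 6370 CPM and 2430 to 5170 CPM, with overlapping groups (-0.43 ± 0.44, adjusted p 0.402). The locus AT2G01021 stood at 904, 9480 and 8220 CPM and then at 5230, 3440 and 2160 CPM, also with overlapping groups (-0.78 ± 0.68).

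**Figure D1:**
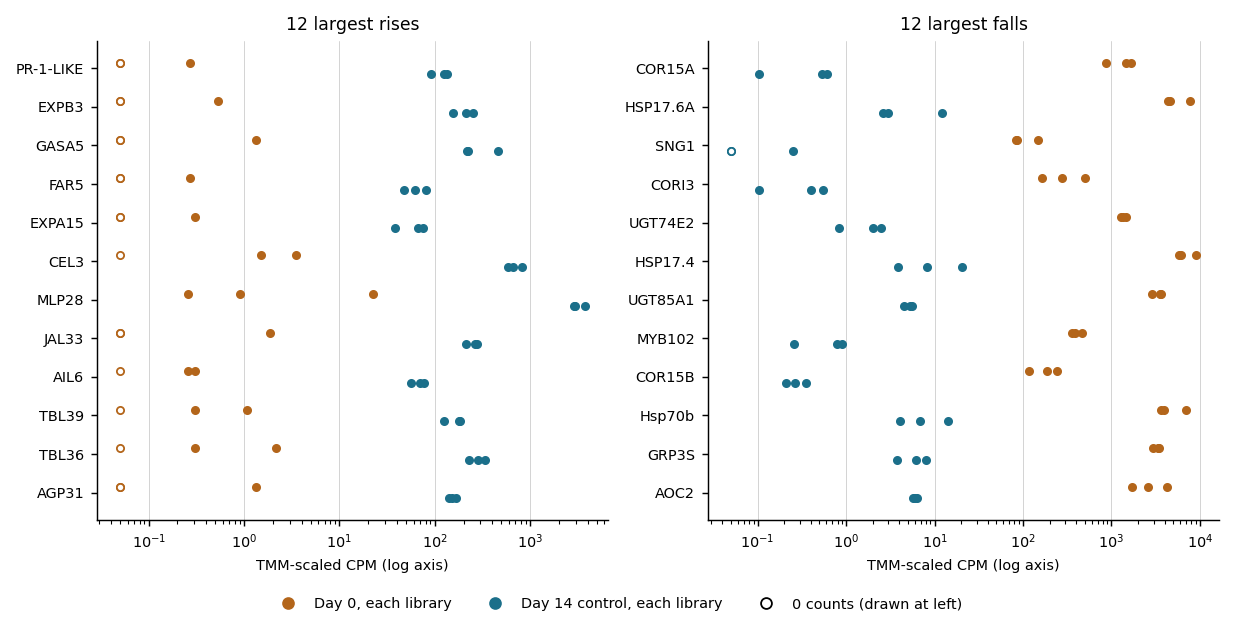
Scaled CPM on a log axis in each of the 3 Day 0 (brown) and 3 Day 14 control (blue) libraries for 24 named nuclear genes of at least 50 CPM, the 12 that rose most and the 12 that fell most; open points are libraries with 0 counts, drawn at the left edge. The groups stay apart for all 24 genes, as the choice of genes required. PR-1-LIKE lies at 0.268 CPM or below at Day 0 and at 91.4 CPM or above at Day 14. COR15A lies at 866 CPM or above at Day 0 and at 0.605 CPM or below at Day 14.

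The largest falls included stress genes. COR15A, a cold- and drought-induced chloroplast protein, stood at 1660, 866 and 1470 CPM at Day 0 and at 0.529, 0.104 and 0.605 CPM at Day 14, a log2 fold change of -11.68 ± 0.72 (adjusted p 4.34e-08, edgeR). Its neighbour and homologue COR15B fell by 9.29 on the log2 scale, from 117 to 244 CPM down to 0.208 to 0.353 CPM. UGT74E2 and UGT85A1, glycosyltransferases of small molecules, fell by 9.62 and 9.35. The transcription factor MYB102 fell by 9.30, the coronatine-induced gene CORI3 by 9.79, the glycine-rich protein gene GRP3S by 9.11 and SNG1, which makes the sunscreen compound sinapoylmalate, by 9.79. In each of these genes the lowest Day 0 library lay above the highest Day 14 library, which was a condition of their choice.

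All 14 heat shock genes listed fell, at a median of -7.70 on the log2 scale beside 0.29 over all loci tested. Their summed level was 71500 to 106000 CPM per library at Day 0 and 272 to 494 CPM at Day 14. HSP90.1, a cytosolic chaperone, held the most counts of any nuclear locus at Day 0, with 18300, 24100 and 30900 CPM, and stood at 172, 204 and 92.4 CPM at Day 14 (-7.29 ± 0.98). HSP101, the disaggregase of heat tolerance, went from 7930 to 11900 CPM down to 18.0 to 44.6 CPM (-8.34 ± 0.77). The regulators fell with the chaperones, HSFA2 by 7.66 and the coactivator MBF1C by 8.26, and so did the small heat shock proteins HSP17.6A (-9.94 ± 0.91) and HSP17.4 (-9.37 ± 0.93) and the chaperones Hsp70b (-9.20 ± 0.63) and HSP70 (-7.54 ± 0.92). HSP17 genes are close copies of each other, so reads may be split among them. Detoxifying enzymes were also among the 5 nuclear loci with the most counts at Day 0. The glutathione transferase GSTF8 went from 16900, 13000 and 18400 CPM to 152, 164 and 210 CPM (-6.52 ± 0.43). GSTU19, of another class of the same enzymes, fell by 3.79, and OPR1, an oxophytodienoate reductase of the class not used for jasmonate, by 3.93.

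Photosynthesis genes fell as a group, unevenly. Of 71 tested nuclear genes of the photosystems and light-harvesting antenna, 36 fell and 1 rose, with a median of -2.03. The gene that rose, AT2G17630, is listed with photosystem I but is annotated as a phosphoserine aminotransferase, an enzyme of serine synthesis. All 5 rubisco genes fell, with a median of -7.37. RBCS1A, which encodes the main small subunit, went from 923, 518 and 1330 CPM to 106, 72.2 and 64.7 CPM (-3.51 ± 0.55). RBCS3B, one of 3 near-identical neighbours whose reads may be split, went from 308 to 1380 CPM down to 1.3 to 4.1 CPM (-8.15 ± 1.25). CA1, the chloroplast carbonic anhydrase, fell by 7.19, and the antenna genes CAB3 and CAB2 by 4.82 and 4.52. Without the 3 libraries with spread-out reads, which leaves Day 14 replicate 2 alone in its group, the calls of RBCS1A, CAB3 and CAB2 were lost. Their changes were then -3.33, -4.15 and -3.85. Day 0 replicate 2 was the lowest Day 0 library for RBCS1A, RBCS3B, CA1, CAB3 and CAB2.

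Carbon fixation genes beyond rubisco split. Of 15 Calvin cycle genes 8 fell, led by the aldolase FBA2, which went from 314, 168 and 542 CPM to 1.85, 1.87 and 2.17 CPM (-7.42 ± 0.59). The bisphosphatase HCEF1 fell by 3.62 and the epimerase RPE by 3.61. Of 15 photorespiration genes 11 fell, with a median of -3.86. GOX1 and GOX2, the peroxisomal glycolate oxidases, fell by 8.70 and 6.65, and the aminotransferase AGT by 6.82. In chlorophyll synthesis 4 of 26 genes fell, beside 13.5% of all loci tested. Among the 4 were HEMA2 (-3.37 ± 0.27) and the magnesium chelatase subunit GUN5 (-2.18 ± 0.45). The call of GUN5 was lost without Day 0 replicate 3 (-1.90). PORB, a protochlorophyllide reductase that needs light, rose from 7.14, 6.16 and 11.5 CPM to 49.3, 43.1 and 38.1 CPM (2.4 ± 0.36). In chlorophyll breakdown 3 of 5 genes fell, CLH1, PPH and ACD1, by 3.84, 2.76 and 2.27. Under scaling to total counts the calls of GUN5 (-0.84), PPH (-1.45) and ACD1 (-0.97) were lost. Of 18 chloroplast fission genes 1 rose and 1 fell, beside 20.5% and 13.5% of all loci tested.

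Loci of the plastid genome were counted separately. Of 82 tested, 51 fell and 0 rose, with a median of -2.52, and of the 20 that encode photosystem proteins 18 fell (median -4.60). With all 11 Day 0 libraries as the baseline 22 of the 82 fell and 2 rose (median -1.23), and 12 of the 20 fell (median -3.35). At Day 0 the gene ATCG00680, psbB of photosystem II, stood at 3740, 11200 and 11500 CPM and at Day 14 at 167, 62.7 and 46.8 CPM (-6.58 ± 0.76). The photosystem I gene ATCG00630, psaJ, fell by 6.22. ATCG00430, listed as psbG and encoding a subunit of the NDH complex, fell by 7.24. In Day 0 replicates 4 to 8, scaled in a separate fit, ATCG00680 stood at only 126 to 213 CPM, and against all 11 Day 0 libraries its change was -4.66 and its call was lost, whereas ATCG00630 (-4.71) and ATCG00430 (-5.80) kept theirs. The plastid share of all counts was 2.27% to 4.42% in Day 0 replicates 1 to 3, 0.574% to 0.877% in Day 0 replicates 4 to 11 and 0.453% to 0.535% at Day 14. The count and the size of the plastid falls thus depended on which Day 0 libraries were the baseline. The kit selects poly(A) tails, which plastid transcripts mostly lack, so these levels are what escaped that selection. Of 90 mitochondrial loci 10 fell and 0 rose, beside 13.5% and 20.5% of all loci tested. With all 11 Day 0 libraries 5 fell and 15 rose, and under scaling to total counts 1 fell and 19 rose. Under that scaling 29 of the 82 plastid loci fell.

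Upstream stretches of 3 of the nuclear photosystem and antenna genes are printed to show the letters behind a count over promoters. The window was 250 bases before and 50 bases after each RefSeq gene start on TAIR10.1, and 27443 promoters were read. The G-box CACGTG, searched on both strands, lay in 20 of the 72 promoters of these genes (27.8%) and in 7.68% of all promoters. The I-box core GATAAG lay in 25 of them (34.7%) and in 14.6% of all promoters. Among the 36 that fell, 10 held the G-box and 11 the I-box core. The motifs share no letters that make one a match of the other. Each line is 5′ to 3′ along the gene's strand, and capitals mark the match, for PnsL1 on the opposite strand.
PnsL1, chr2:16476062-16476141, plus strand: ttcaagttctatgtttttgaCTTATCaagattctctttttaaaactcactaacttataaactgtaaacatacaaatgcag
LHCB2.3, chr3:10255798-10255877, plus strand: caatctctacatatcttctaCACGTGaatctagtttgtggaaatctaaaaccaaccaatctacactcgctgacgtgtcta
LHCB2.1, chr2:1824642-1824721, minus strand: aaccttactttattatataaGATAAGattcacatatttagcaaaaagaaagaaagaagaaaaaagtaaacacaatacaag
PnsL1, a lumenal subunit of the NDH complex, fell by 5.70 on the log2 scale. The antenna genes LHCB2.3 and LHCB2.1 fell by 4.1 and 3.27. The calls of LHCB2.3 and LHCB2.1 were lost without the 3 libraries with spread-out reads, which leaves Day 14 replicate 2 alone in its group. A match is a run of letters and not a shown binding site.

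Genes of cell division rose. Of 180 tested genes of the G2/M list, 111 rose and 4 fell. Their median was 2.98 on the log2 scale (2.93 with genes at 0 counts set to their bound), and their summed level 546 to 833 CPM at Day 0 and 2050 to 2700 CPM at Day 14. Of 170 S phase genes 71 rose and 8 fell (median 1.71). All 6 MCM genes, which encode the replicative helicase, rose, with a summed level of 1.34 to 6.67 CPM at Day 0 and 104 to 140 CPM at Day 14. MCM5 went from 0.51, 1.07 and 1.21 CPM to 37.2, 27.6 and 33.7 CPM (5.14 ± 0.38). MCM2 went from 0.255, 0.268 and 1.21 CPM to 27.9, 24.5 and 28.2 CPM (5.57 ± 0.41). MCM3 had 1 read in all Day 0 libraries together and stood at 15.8 to 25.6 CPM at Day 14, a count ratio of 227 (40.6 to 8960). ORC3, of the origin recognition complex, and RNR1, the large subunit of ribonucleotide reductase, rose by 5.18 ± 0.63 and 3.29 ± 0.33. PCNA1, the sliding clamp, stood at 5.86, 4.29 and 10.6 CPM and then at 8.99, 7.08 and 11.0 CPM, with overlapping groups (0.40 ± 0.40, adjusted p 0.388).

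Among the core regulators, 4 of 7 tested D-type cyclins, which start the cycle, rose and 0 fell. CYCD3;1 went from 1.27, 0 and 0.909 CPM to 54.6, 47.1 and 49.7 CPM (6.08 ± 0.53, adjusted p 5.41e-07). CYCD4;1 rose with a count ratio of 64.3 (17.7 to 532) and CYCD3;3 with one of 66.8 (11.9 to 2650). The kinase CDC2, also named CDKA;1, stood at 7.77 to 9.70 CPM at Day 0 and at 24.3 to 33.4 CPM at Day 14, a shift of 1.80 ± 0.22 that stays under the fold threshold. The repressor RBR1 stood at 61.3 to 85.2 CPM and then 54.5 to 61.4 CPM (-0.41 ± 0.19, adjusted p 0.0654). E2F1, an E2F factor, went from 130, 113 and 127 CPM to 13.6, 12.9 and 12.2 CPM (-3.26 ± 0.28), and the CDK inhibitor ICK5 (KRP7) fell by 2.71. In the G2/M set of 39 core genes 20 rose and 3 fell. The mitotic kinase CDKB1;1 rose with a count ratio of 77.6 (21.4 to 642), and CDC20.1, an activator of the anaphase-promoting complex, rose by 4.62 ± 0.61. MYB3R-3 and MYB3R-5, MYB proteins known as repressors of G2/M genes, fell by 2.56 ± 0.24 and 3.44 ± 0.36. Under scaling to total counts the calls of E2F1 (-1.95), ICK5 (-1.39) and MYB3R-3 (-1.23) were lost and that of MYB3R-5 (-2.11) was kept, and with all 11 Day 0 libraries that of ICK5 (-1.65) was lost. MYB3R-4, known as an activator, stood at 8.04 to 12.2 CPM and 8.2 to 15.8 CPM (0.27 ± 0.31). CYCB1;1, often used as a marker of mitosis, stood at 1.21 to 2.80 CPM and then 2.81 to 4.94 CPM (0.78 ± 0.59, adjusted p 0.251).

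**Figure D2:**
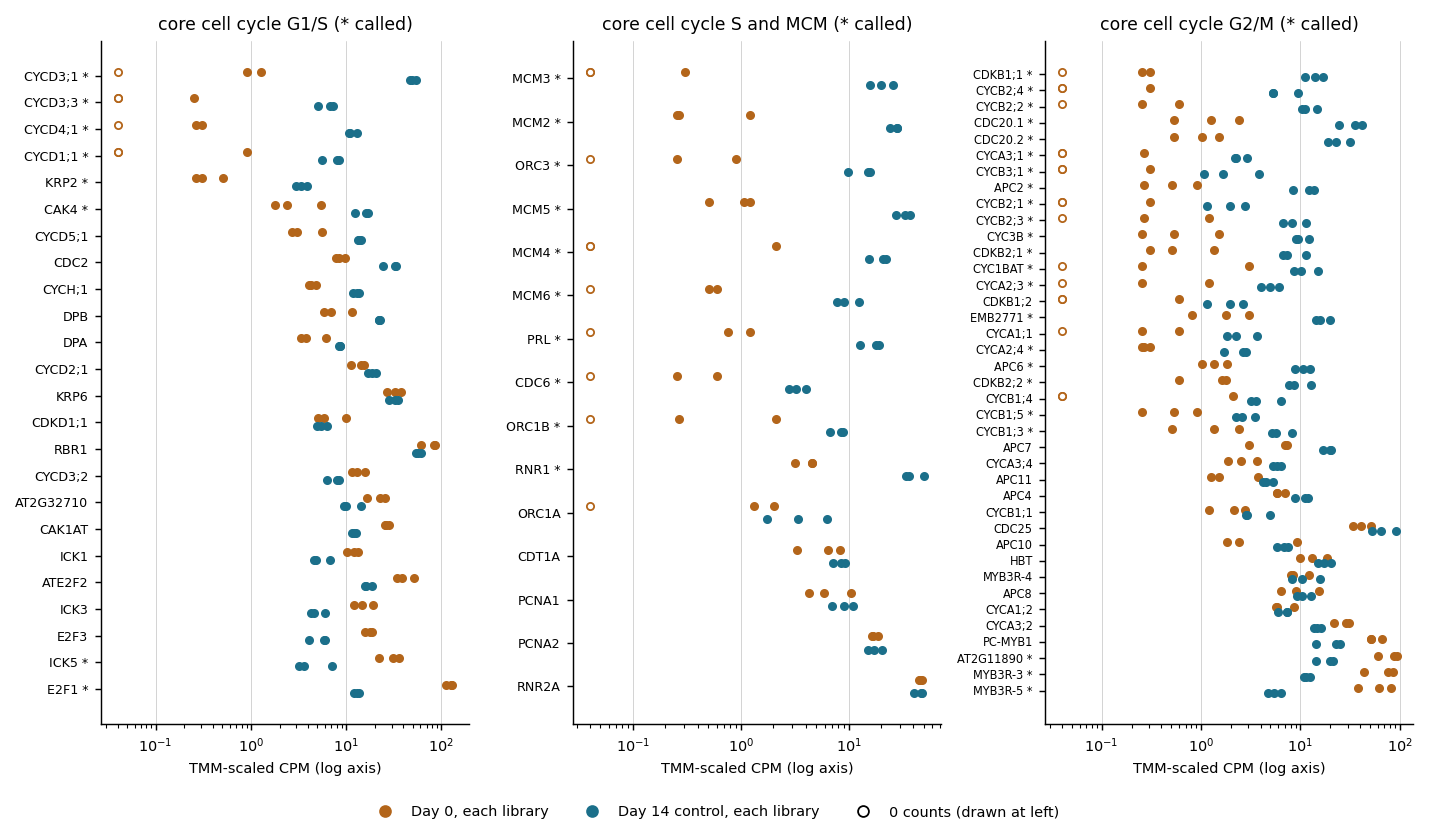
Scaled CPM on a log axis in each Day 0 (brown) and Day 14 control (blue) library for the tested core cell-cycle genes of G1/S, of S phase with the MCM genes, and of G2/M, ordered by log2 fold change; an asterisk marks a called gene and open points are libraries with 0 counts, drawn at the left edge. CYCD3;1 stands at 1.27 CPM or below at Day 0 and at 47.1 CPM or above at Day 14, while E2F1 stands at 113 CPM or above at Day 0 and at 13.6 CPM or below at Day 14.

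Stretches before the starts of 6 of the risen cell-cycle genes are printed for the same purpose. The MSA core AACGG, on either strand, lay in 123 of 183 promoters of the G2/M list (67.2%) and in 24.7% of all promoters. Of the 111 G2/M genes that rose, 79 held it. The E2F word TTTCCCGC lay in 41 of 172 S phase promoters (23.8%), in 0.546% of G2/M promoters and in 0.798% of all promoters, and the second E2F word TTTGGCGC lay in 10.5% of S phase promoters and 0.434% of all. Of the 71 S phase genes that rose, 24 held TTTCCCGC. Capitals mark the MSA core or its complement in the first 3 lines and an E2F word or its complement in the last 3.
ENODL15, chr4:15401560-15401639, plus strand: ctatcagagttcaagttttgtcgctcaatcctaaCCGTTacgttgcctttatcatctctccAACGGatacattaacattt
ENODL14, chr2:10662059-10662138, plus strand: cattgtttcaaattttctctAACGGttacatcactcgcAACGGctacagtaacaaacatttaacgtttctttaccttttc
SDG35, chr1:9250034-9250113, minus strand: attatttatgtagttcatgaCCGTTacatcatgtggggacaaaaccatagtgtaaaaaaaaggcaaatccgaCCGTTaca
MCM3, chr5:18773817-18773896, minus strand: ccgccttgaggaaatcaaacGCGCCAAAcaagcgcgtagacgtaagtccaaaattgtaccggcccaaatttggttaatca
SMC6A, chr5:2422703-2422782, plus strand: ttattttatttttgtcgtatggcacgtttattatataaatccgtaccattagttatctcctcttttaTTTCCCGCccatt
MCM2, chr1:16970134-16970213, plus strand: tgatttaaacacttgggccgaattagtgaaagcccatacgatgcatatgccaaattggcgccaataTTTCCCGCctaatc
ENODL15 and ENODL14, early nodulin-like wall proteins, stood at 0.536 CPM or below at Day 0 and at 18.6 to 35.0 and 9.13 to 14.2 CPM at Day 14. SDG35, a SET domain protein, stood at 4.95 to 11.0 CPM at Day 14, and SMC6A, of the SMC5/6 complex of DNA repair, at 7.86 to 11.9 CPM. All of these genes but MCM2 had 0 counts in at least 1 Day 0 library.

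**Figure D3:**
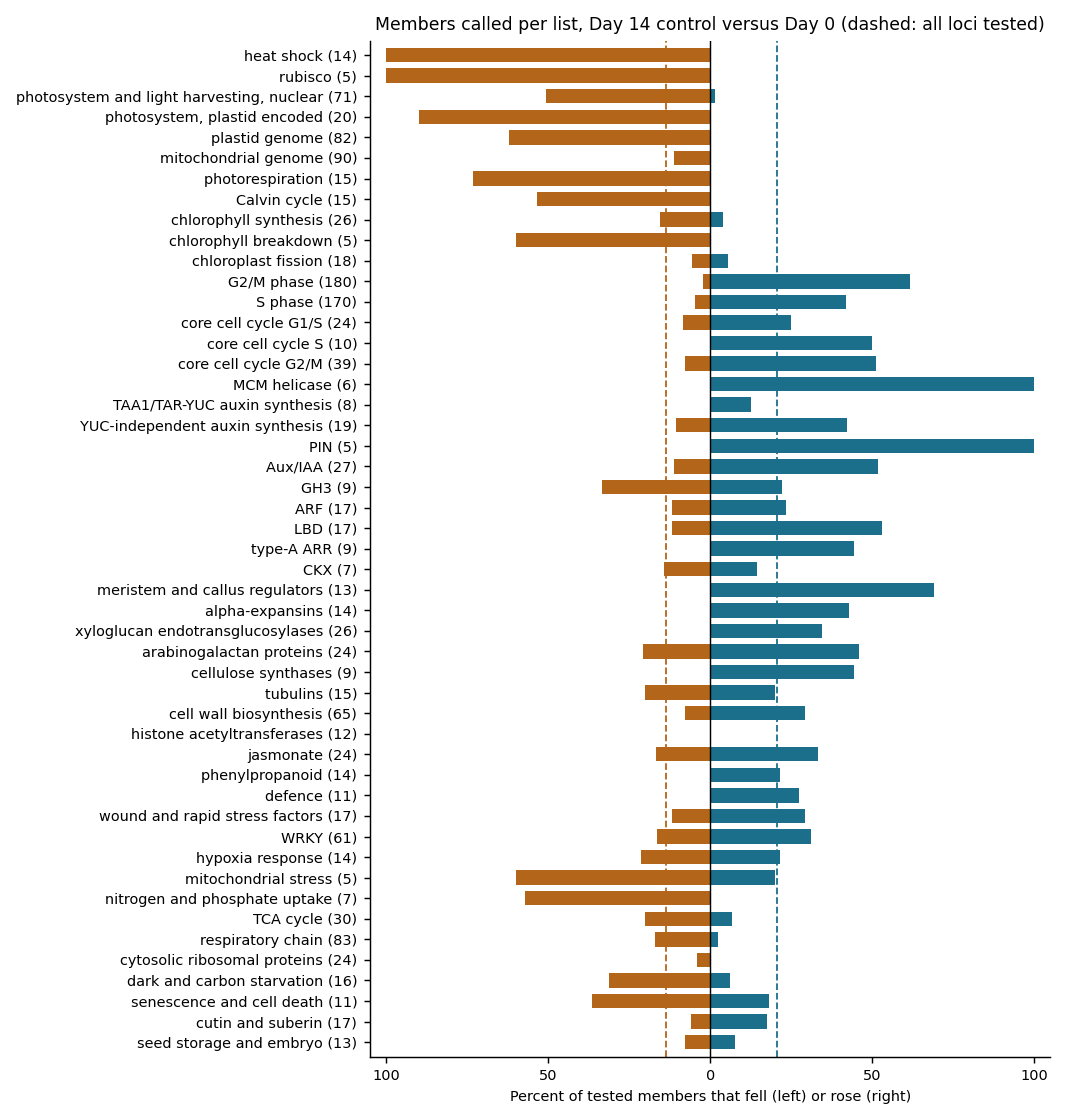
Percent of the tested members of each gene list that fell (brown, left) or rose (blue, right) at Day 14 against Day 0, with the number tested in parentheses; the dashed lines are the percentages over all loci tested, 13.5% that fell and 20.5% that rose. All 14 heat shock and all 5 rubisco genes fell, all 6 MCM and all 5 tested PIN genes rose, and 0 of 12 histone acetyltransferase genes was called.

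Auxin transport and response genes rose in part. Beside the counts of this paragraph, 20.5% of all loci tested rose and 13.5% fell. All 5 tested PIN genes, auxin exporters, rose, with a median of 5.93. PIN3 went from 0.909 to 1.27 CPM up to 58.7 to 78.4 CPM (5.93 ± 0.43), and PIN7 rose with a count ratio of 150 (68.9 to 409). PIN4 rose by 4.3 ± 0.97, a call that was lost without Day 0 replicate 2 (3.66). Of 27 tested genes matched to the Aux/IAA name, 14 rose and 3 fell (median 3.09, or 2.12 with genes at 0 counts set to their bound). IAA1 went from 2.04, 0.536 and 0.909 CPM to 132, 96.0 and 98.0 CPM (6.51 ± 0.48), and IAA5 rose by 6.15 ± 0.95. IAA16 went from 1480, 1230 and 1680 CPM to 118, 109 and 116 CPM (-3.68 ± 0.25), and IAA7 and IAA18 fell by 6.14 and 2.51. The 27 include 3 auxin response factors that carry an IAA name as a synonym, of which MP rose (3.20 ± 0.42), and of the other 24 genes 13 rose and 3 fell (median 3.22). Of 17 tested loci with an ARF name 4 rose and 2 fell, shares near those of all loci tested. Of the 17, 2 encode ADP-ribosylation factors, small GTPases that share only the abbreviation, and 1 of these (AT1G23490) was among the falls. Of the auxin response factors, ARF4 rose with a count ratio of 28.5 (13.8 to 71.1), ARF8 by 4.21 and ETT by 4.31 ± 0.61. Of 9 GH3 genes, whose enzymes join auxin to amino acids, GH3.1 and GH3.3 rose (7.95 ± 0.77 and 2.47 ± 0.45) and 3 fell, among them BRU6, also named GH3.2 (-2.92 ± 0.30). The share of GH3 genes that rose was near that of all loci tested. Under scaling to total counts the calls of IAA18 (-1.21) and BRU6 (-1.63) were lost.

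Of 8 tested genes of the TAA1 and YUCCA route of auxin synthesis 1 rose, beside 20.5% of all loci tested. YUC4, a flavin monooxygenase, stood at 0, 0 and 0.909 CPM at Day 0 and at 8.47, 5.47 and 10.1 CPM at Day 14, a count ratio of 28.9 (9.82 to 141). The other 7 tested members, TAA1, YUC1, YUC2, YUC5, YUC6, YUC8 and YUC9, were not called. The lack of a call does not tell a gene near the floor from one that moved under the thresholds. Of 19 genes that have been linked to other routes 8 rose and 2 fell (median 1.4). CYP79B2, which makes indole-3-acetaldoxime, went from 2.04, 8.30 and 2.43 CPM to 159, 583 and 258 CPM (6.28 ± 0.79), and its homologue CYP79B3 rose by 4.50 ± 0.50. Both were highest in Day 14 replicate 2, as was CYP71A13 of camalexin synthesis, at 207, 776 and 347 CPM. The nitrilases NIT2 and NIT3 rose by 4.74 ± 0.42 and 5.58 ± 0.53, with NIT2 going from 33.7, 47.9 and 25.5 CPM to 767, 1160 and 944 CPM. The aldehyde oxidase AO4 rose with a count ratio of 81.4 (37.3 to 222), AO1 fell by 2.45 ± 0.32 and the aldehyde dehydrogenase ALDH3I1 fell by 3.62 ± 0.34. In the cytokinin pathway 4 of 9 type-A response regulators rose, among them RR3 (3.44 ± 0.45) and RR5 (2.64 ± 0.46). CKX3, which degrades cytokinin, stood at 0, 0.804 and 0 CPM and then at 63.2, 96.9 and 75.6 CPM, a count ratio of 301 (103 to 1460). CKX7 of the same family went the other way, from 10.2, 9.11 and 17.9 CPM to 0.926, 0.625 and 1.61 CPM (-3.5 ± 0.4). CKX1, CKX2, CKX4, CKX5 and CKX6 were not called.

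Of 20 listed regulators of meristems and callus, 13 passed the filter, 9 rose and 0 fell. Their median was 4.54, or 3.75 with genes at 0 counts set to their bound, and their summed level 14.7 to 34.3 CPM at Day 0 and 231 to 296 CPM at Day 14. WOX11, a homeobox factor of adventitious rooting, had 0 counts in all Day 0 libraries and stood at 32.8, 55.3 and 37.8 CPM at Day 14, at least 50.8-fold higher against a floor of 3 counts per library. WUS, the stem cell organiser of the shoot, had 0 counts at Day 0 and stood at 8.99, 4.74 and 12 CPM at Day 14, at least 10.4-fold higher. The AP2 factors AIL6, AIL5 and AIL7, also named PLETHORA 3, 5 and 7, stood at 1.07 CPM or below at Day 0. At Day 14 AIL6 reached 56.3, 69.9 and 77.8 CPM, AIL5 53.8, 65.7 and 54.6 CPM (6.69 ± 0.51) and AIL7 8.86, 13.1 and 14.7 CPM. SHR, of root patterning, reached 6.88 to 13.1 CPM, LBD16, a target of auxin in lateral roots, 7.54 to 15.9 CPM (3.75 ± 0.58) and CUC2, of shoot boundaries, 1.56 to 3.48 CPM. WOX13, known from wound callus, stood at 7.77 to 22.7 CPM and then 34.9 to 47.7 CPM, with groups that did not overlap but values that missed the thresholds (1.24 ± 0.42, adjusted p 0.0172). WOX5, PLT1, PLT2, LBD17, LBD29, LBD33 and STM did not pass the filter. ESR1, an AP2 factor of shoot regeneration, went from 0, 0.536 and 1.82 CPM to 132, 97.8 and 100 CPM (7.19 ± 0.63).

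Wall genes were counted by family. Of 14 tested alpha-expansins 6 rose and 0 fell, with a summed level of 35.4 to 58.7 CPM at Day 0 and 945 to 1200 CPM at Day 14. EXPA4 went from 1.02, 2.68 and 0.303 CPM to 384, 276 and 303 CPM (7.87 ± 0.57), EXPA1 from 0.909 to 5.36 CPM up to 414 to 469 CPM (7.48 ± 0.56), and EXPA15 rose with a count ratio of 617 (111 to 24400). Of 26 xyloglucan endotransglucosylase genes 9 rose, among them XTH19 (3.38 ± 0.41). Of 9 cellulose synthases 4 rose, among them CESA5 and CESA2 of the primary wall complex (2.78 ± 0.28 and 2.49 ± 0.29) and CESA4 of the secondary wall complex, at 4.63 to 8.90 CPM at Day 14 (2.58 ± 0.45). Arabinogalactan proteins moved in both directions, with 11 of 24 up and 5 down. AGP27 had 0 counts at Day 0 and stood at 16.3, 14.5 and 15.4 CPM at Day 14, at least 18.6-fold higher, whereas AGP12 went from 2140, 1920 and 2230 CPM to 127, 157 and 124 CPM (-3.94 ± 0.25).

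Defence and wound genes split between genes high at Day 0 and genes high at Day 14. The counts below stand beside 20.5% of all loci tested that rose and 13.5% that fell. Of 24 jasmonate genes 8 rose and 4 fell. AOC2, an allene oxide cyclase, went from 2590, 1710 and 4220 CPM to 6.08, 5.68 and 6.41 CPM (-8.87 ± 0.64), and LOX2, a 13-lipoxygenase, fell by 4.44 ± 0.58. AOC4, another cyclase, rose by 4.69 ± 0.40, and VSP2, a storage protein induced by jasmonate, went from 0.51, 1.34 and 0 CPM to 157, 81.4 and 121 CPM (7.52 ± 1.03). The AOC genes and the pair VSP1 and VSP2 are near-identical within each set, so the split of reads among copies is uncertain. Of 61 WRKY factors 19 rose and 10 fell. WRKY53 went from 9.18, 5.89 and 8.18 CPM to 187, 270 and 141 CPM (4.68 ± 0.58), and WRKY25 fell from 339 to 561 CPM down to 12.8 to 21.7 CPM (-4.78 ± 0.41). BGL2, the beta-glucanase PR2, rose by 5.49 ± 0.58 and the ethylene response factor ERF104 by 5.38 ± 0.59, while RHL41 (ZAT12), a zinc finger factor of oxidative stress, fell by 3.53 ± 0.43. Of 14 phenylpropanoid genes 3 rose, a share near the 20.5% of all loci tested. The largest rise was that of 4CL2, which went from 18.6, 16.1 and 8.49 CPM to 212, 315 and 351 CPM (4.34 ± 0.32). PAL1, the entry enzyme, stood at 720 to 1160 CPM and 705 to 1590 CPM, with overlapping groups (0.48 ± 0.43).

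Of 7 nitrogen and phosphate uptake genes 4 fell and 0 rose. NIA2, a nitrate reductase, went from 10800, 7780 and 9410 CPM to 356, 778 and 611 CPM (-4.01 ± 0.46). The nitrate transporter NRT1.1 fell by 3.67 ± 0.36. AOX1A, the alternative oxidase, went from 1480, 792 and 952 CPM to 47.9, 46.8 and 42.5 CPM (-4.55 ± 0.45), and the external NAD(P)H dehydrogenase NDB2 fell by 4.27 ± 0.31. BCS1, listed with them as a mitochondrial stress gene, rose from 59.1, 56.3 and 49.1 CPM to 544, 618 and 573 CPM (3.40 ± 0.57). AOX1D of the same list (-1.97 ± 0.54) was not called. Of 14 hypoxia genes 3 rose and 3 fell, beside 20.5% and 13.5% of all loci tested. ERF71 (HRE2) fell from 208, 342 and 338 CPM to 4.23, 2.81 and 2.62 CPM (-6.56 ± 0.67) and AlaAT1, an alanine aminotransferase, by 3.82 ± 0.31, whereas ADH1, the classic marker of low oxygen, stood at 43.7 to 79.5 CPM and 27.2 to 80.1 CPM (-0.22 ± 0.39). Respiratory chain genes, 2 up and 14 down of 83, a share of falls of 16.9% beside 13.5% of all loci, and TCA cycle genes, 2 up and 6 down of 30, had medians of -0.07 and -0.60, whose sign turned under scaling to total counts (1.25 and 0.70). The hypoxia and chlorophyll synthesis medians, -0.76 and -0.71, turned as well (0.50 and 0.62). Of 24 cytosolic ribosomal protein genes 1 was called. It was SAG24, the senescence-associated RPL10C, which went from 9510, 9000 and 9340 CPM to 281, 357 and 367 CPM (-4.79 ± 0.30). The senescence factors NAP and NAC6 fell by 7.00 ± 0.70 and 4.60 ± 0.50, whereas the senescence-associated gene SAG12 rose. SAG12 went from 0, 0 and 0.303 CPM to 6.08, 3.54 and 7.52 CPM, a count ratio of 61.8 (11.0 to 2450). The protease gene CEP1, of programmed cell death, rose from 0, 0 and 1.21 CPM to 34.0, 25.6 and 28.1 CPM (6.26 ± 0.91).

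Markers of leaf cell types were read in the same libraries. All 5 mesophyll markers fell, from a summed 1390 to 3940 CPM per library at Day 0 to 155 to 191 CPM at Day 14. Of 6 tested guard cell, 5 epidermis, 5 phloem, 5 xylem and 1 trichome markers 2 rose and 0 fell. These were HA3, a plasma membrane proton pump listed for phloem, at 2.55, 10.2 and 3.33 CPM and then 64.0, 100 and 93.6 CPM (4.00 ± 0.42), and IRX12, a laccase of lignin, at 2.38 to 5.6 CPM at Day 14, whose call was lost without any one of 4 libraries. The other phloem markers were low, with SUC2, the companion cell sucrose carrier, at 2.12 to 3.21 CPM at Day 0 and 11.1 to 15.7 CPM at Day 14 (2.22 ± 0.86, adjusted p 0.0342). The part of other cell types in the changes was not tested.

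A separate set of libraries, replicates 4 to 8, held Day 0 and Day 6 protoplasts of the same culture without inhibitor, so the change to Day 14 can be set beside an earlier one that shares no sample with it. At Day 6, 5230 of 19043 loci rose and 3112 fell against their own Day 0 libraries, which is 27.5% and 16.3% (43.8% together). Of the 4141 rises at Day 14, 3276 also rose at Day 6 (79.1% of the Day 14 rises and 62.6% of the Day 6 rises) and 10 fell. Of the 2720 falls at Day 14, 2087 also fell at Day 6 (76.7% and 67.1%) and 5 rose. Across 18623 loci tested in both, which share the dominant contrast of culture against Day 0, the log2 fold changes had Pearson's r 0.875 and Spearman's rho 0.883, as a description, since loci are not independent replicates.

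The difference between the changes was tested with edgeR's quasi-likelihood test on both sets of libraries, each against its own Day 0. Of 21287 loci 746 (3.5%) changed to a higher and 582 (2.73%) to a lower value at Day 14 than at Day 6, together 6.24%. Day and experiment cannot be told apart in this test. Of 14 phenylpropanoid genes 8 were higher. PAL1, for one, had a log2 fold change of 0.48 at Day 14 and -3.54 at Day 6, a difference of 4.14. The difference comes from 1 joint fit of both experiments and need not equal the difference between the separately fitted values. Of the WRKY factors 13 were higher and 1 lower, and WRKY40 had 0.24 at Day 14 and -4.35 at Day 6. VSP2, the nitrate reductase NIA1 and ERF104 were higher by 5.36, 4.03 and 2.76. Of the plastid loci 69 were lower. Their median was 1.80 at Day 2, 1.38 at Day 4, 0.61 at Day 6 and -2.52 at Day 14. The baselines of this comparison differed, since the plastid share of counts was 2.27% to 4.42% in Day 0 replicates 1 to 3 and 0.574% to 0.791% in Day 0 replicates 4 to 8, beside 1.1% to 1.57% at Day 6 and 0.453% to 0.535% at Day 14. The mitochondrial share was 0.0962% to 0.15% and 0.0345% to 0.0443% in the same Day 0 libraries, and 52 of the mitochondrial loci were lower as well (medians 4.2, 3.82, 2.78 and 0.29 in the same order). Of the G2/M genes 0 were higher and 7 lower, beside 3.5% and 2.73% of all loci tested. Over the 179 tested at every time their median was 4.95 at Day 6 and 3.00 at Day 14. PCNA1 was lower by 2.57, with Day 0 means of 6.92 CPM in replicates 1 to 3 and 2.80 CPM in replicates 4 to 8. How far such Day 0 differences enter the G2/M medians was not tested. Several genes that had already fallen at Day 6 stood lower still, among them COR15A (-5.84 at Day 6), UGT74E2 (-4.56) and GRP3S (-4.26), with differences of -5.71, -4.97 and -4.73.

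**Figure D4:**
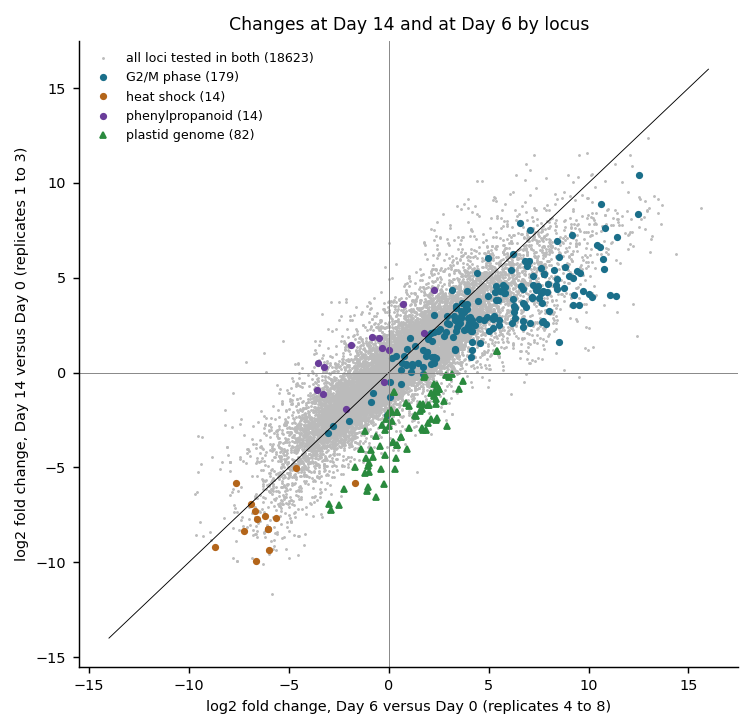
Log2 fold change of each locus at Day 14 (replicates 1 to 3, vertical) against that at Day 6 (replicates 4 to 8, horizontal), each against Day 0 of its own experiment; grey points are the 18623 loci tested in both, coloured points the named lists, and the diagonal marks equal change. Plastid loci (green triangles) lie below the diagonal, with 69 of them called lower at Day 14 against a Day 0 baseline of higher plastid share, and phenylpropanoid genes (purple) lie mostly above it.

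**Figure D5:**
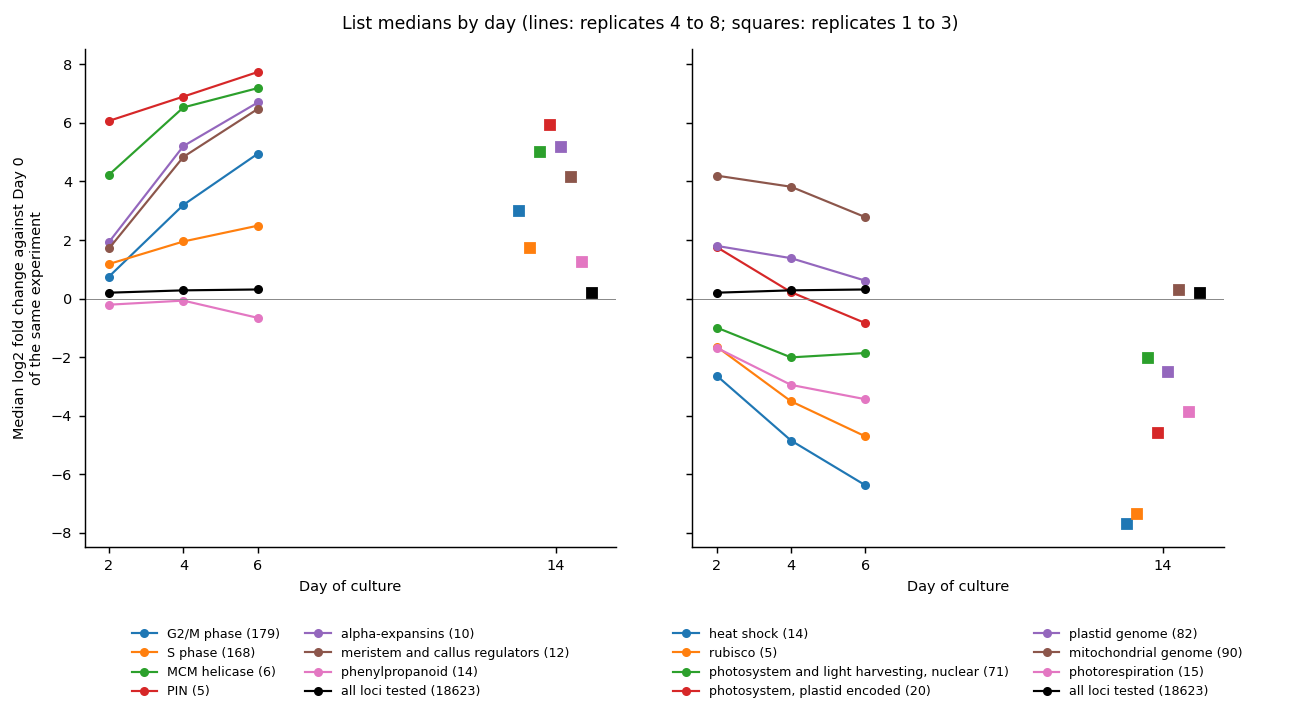
Median log2 fold change of gene lists against Day 0 at Days 2, 4 and 6 (joined circles, replicates 4 to 8) and at Day 14 (squares, replicates 1 to 3, spread sideways for legibility), over members tested at every time, whose number is in parentheses. Each value is against Day 0 of its own experiment. Heat shock genes have medians of -2.63, -4.85, -6.38 and -7.70, and MCM genes of 4.23, 6.53, 7.19 and 5.01, in order of day.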

How the data were processed

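RNA was read from 6 libraries, 3 of Day 0 and 3 of Day 14 control, made with a stranded poly(A) kit and sequenced single-end. The authors mapped reads with Bowtie 0.12.9 to TAIR10 and deposited raw counts per splice variant; the counting program and its handling of reads with several hits are not given in the sources used here. Counts of the lowest-numbered variant of each locus were taken. Their sum exceeded the mapped reads in each library (7389537 against 7210638 in Day 0 replicate 1), so some reads were counted at more than 1 locus.

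Counts of 28109 loci were tested with edgeR 4.0.16 (R 4.3.3), with its filter on low counts, TMM scaling and the quasi-likelihood test in 1 fit of 12 libraries, which added leaf and the Day 14 libraries treated with the inhibitor MB-3 to share the estimate of spread. The standard error is the size of a log2 fold change over the square root of its F statistic. A group at 0 counts was set to a floor of 3 counts per library for a bound. With at most 3 counts in each library of a group, the ratio of summed counts is given with an exact interval. Intervals and floors cover counting error only. The deposited labels number the replicates, and the methods call them biological. No 2 replicates agreed within counting noise (chi-square per degree of freedom 18.5 to 28.0). On simulated counts of this comparison, 181 of 200 loci changed 8-fold were recovered among 18599 loci, with 0 false calls. Only these 200 loci changed there, evenly up and down, and no spread-out reads were added. The simulation therefore cannot show how scaling or spread-out reads affect the calls of the real data.

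Of the loci, 27572 had a RefSeq entry, which gave symbols. Promoters were read from the RefSeq genome TAIR10.1. Named genes were, first, the 12 largest rises and the 12 largest falls. These were taken among called nuclear loci with a symbol, at least 50 CPM and groups that did not overlap. Further named genes were the 5 loci with the most counts in each group, up to 3 called members in each direction per list, and members of a few lists. PCNA1, RBR1, PAL1, WRKY40, NIA1, GSTF2 and other genes outside these sets were chosen after their values were seen. The result of 1 gene is not reported here. The members and lists were chosen with earlier results of these data known. Alternatives covered scaling, filters, tests, splice variants, the set of libraries, the replicate block and each library left out.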

Additional observations from a re-analysis of the deposited data

Results flagged for a closer look

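The change to Day 14 differed from the change to Day 6, each against Day 0 of its own experiment, at 746 loci that were higher and 582 that were lower at Day 14 (edgeR's quasi-likelihood test, 21287 loci). Day and experiment cannot be told apart in these values, which are differences of log2 fold changes.

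Among the named genes, lower values were found for COR15A at -5.71, UGT74E2 at -4.97, GRP3S at -4.73, CORI3 at -4.67, RNS1, a ribonuclease, at -4.38, MYB102 at -4.03 and HSP18.2 at -4.02. UGT85A1 was lower by -3.58, COR15B by -3.37, HSP17.4 by -3.29, HSP17.6A by -3.23, AOC2 by -2.82, LOX2 by -2.44 and MBF1C by -2.11, and DIN9, a gene induced in the dark, by -2.74. Of the photosynthesis genes named, lower values were those of ATCG00680 at -5.83, ATCG00630 at -5.05, LHCB2.3 at -4.23, ATCG00430 at -4.22, GOX1 at -3.18, AGT at -3.00, RBCS3B at -2.90, FBA2 at -2.52 and GOX2 at -2.05. Growth and hormone genes that were lower were CEL3 at -4.26, PCNA1 at -2.57, IAA7 at -2.55 and BRU6 at -2.27. The locus AT2G01021 (-5.66) and SUC2 (-3.61) were lower too.

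Higher values were found for VSP2 at 5.36, WRKY40 at 4.72, PAL1 at 4.14, NIA1 at 4.03, WRKY53 at 2.92, CCoAOMT1 of lignin synthesis at 2.83, ERF104 at 2.76 and CYP71A13 at 2.62. SCR, of root patterning, and HCT, of lignin synthesis, both had 2.42, and 4CL2 and CYP79B3 both had 2.18. By list, 69 plastid loci, 52 mitochondrial loci and 17 respiratory chain genes were lower, and 8 phenylpropanoid genes and 13 WRKY factors were higher. Over all loci of this test 2.73% were lower and 3.5% higher. The lists differ in size, so their counts cannot be compared with each other. The plastid and mitochondrial values rest on Day 0 baselines that differed, with plastid shares of 2.27% to 4.42% and 0.574% to 0.791% of counts in Day 0 replicates 1 to 3 and 4 to 8 and mitochondrial shares of 0.0962% to 0.15% and 0.0345% to 0.0443%.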

How the results depend on the processing

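Of the calls at Day 14, 0 changed direction under any alternative. Of 143 called named genes followed through the alternatives, 118 kept their call under every one. Scaling to total counts gave 7705 rises and 1033 falls, and 5174 of the 6861 calls were kept. A log2 fold change threshold of 1 gave 10811 changed loci and 4965 falls. Leaving out 1 library at a time gave 3517 to 4328 rises and 2565 to 2876 falls. DESeq2 gave 4408 and 2713. Samples of the same replicate number had correlations of -0.103, 0.125 and 0.261. These few values cannot show whether replicate numbers paired the samples, and the labels do not say. The replicate block gave 4055 rises and 2686 falls. Without the 3 libraries with spread-out reads, an alternative chosen after seeing the data, Day 14 replicate 2 was left alone in its group. The calls of RBCS1A, CAB3, CAB2, GUN5, CLH1, SDG35, LHCB2.3, LHCB2.1, PIN4, GH3.3 and WUS were then lost, with directions kept. Calls of GUN5, PPH, ACD1, E2F1, ICK5, MYB3R-3, LHCB2.1, IAA18, BRU6 and AO1 were lost under total counts, those of MLP28, UGT74E2 and IAA5 with DESeq2, and those of ATCG00680, ICK5 and AO1 with all 11 Day 0 libraries. Signs turned only for genes that were not called: with total counts AT2G01021 (0.51), GSTF2 (0.85), RBR1 (0.91), ADH1 (1.06) and NIA1 (0.22), with all 11 Day 0 libraries AT2G01021 (1.18) and WRKY40 (-0.77), with 1 library left out MYB3R-4 (-0.09 without Day 14 replicate 3, range -0.09 to 0.41) and ADH1 (0.03 without Day 14 replicate 1, range -0.71 to 0.03), and without the libraries with spread-out reads ADH1 (0.23). The cause was not tested.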
